A study of Mus musculus with 26 samples.

Results

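Chromatin access was compared between pre-B cells cultured without interleukin 7 (IL-7) and with the chemokine CXCL12, and pre-B cells cultured with IL-7. The comparison rests on 4 ATAC-seq peak lists out of the 26 libraries of the series. They were chosen by their labels: replicates 1 and 2 labelled IL7- CXCL12+ pre-B, and replicates 1 and 2 labelled IL7+ pre-B. The labels name no deletion, strain or age for these cultures, and do not say whether the 2 replicates were separate cultures or animals. Another pair of lists came from pre-B cells without IL-7 and without CXCL12 (IL7-), and a last pair from mouse small pre-B cells labelled CXCR4-/-. The protocol speaks of sorted primary progenitors and of cultured pre-B cells without naming libraries, and the CXCR4-/- small pre-B cells were taken as the sorted ones. Those 4 lists served as readouts that took no part in choosing regions. RNA-seq of the same media, with 2 libraries each, gave a second readout. Its fit took in all 18 RNA libraries of the 9 RNA groups. The other groups were pre-B cells labelled IL7-, IL7+ CXCL12+, and IL7- CXCL12+ with ERK inhibitor II. They also held wild-type and CXCR4-/- small pre-B cells, and CXCR4-/- small pre-B cells labelled IL7- with and without CXCL12.

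IL-7 drives the division of B cell progenitors in the bone marrow through its receptor, JAK kinases and the transcription factor STAT5. When its signal fades, pre-B cells leave the cell cycle and open the immunoglobulin kappa light chain locus, Igk, for rearrangement by the RAG recombinase. CXCL12 is made by marrow stromal cells and signals through the receptor CXCR4, and the series asks how this signal bears on Igk recombination and late B lymphopoiesis. ATAC-seq uses a transposase that inserts into open DNA, so that a peak marks an accessible stretch, usually a promoter, an enhancer or an insulator.

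The 2 CXCL12 lists held 35800 and 30832 peaks, against 37338 and 31659 peaks in the 2 IL-7 lists. Replicate 1 was thus the longer list in both media. Median peak widths were 534 and 535 bp with CXCL12 and 546 and 550 bp with IL-7, and the peaks covered 21.6 and 18.2 Mb with CXCL12 and 23.0 and 19.2 Mb with IL-7. Each peak carried a score given by the authors, of which the files do not name the scale. The lowest score was 5.00 in each of the 4 lists, so a region missing from a list may still have held reads below that score. The sources used here give no depth of sequencing, and a difference in list length cannot be told apart from one in depth.

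Most accessible regions were held in both media. Peaks that shared at least 1 bp were merged into 44798 regions, of which 24583 (54.9%) held a peak in all 4 libraries. A further 9713 regions (21.7%) held a peak in 1 library alone. There were 823 regions with a peak in both CXCL12 libraries and neither IL-7 library, 1.84% of all regions, called CXCL12-specific below. There were 1538 regions with a peak in both IL-7 libraries and neither CXCL12 library, 3.43% of all regions, called IL-7-specific below. These names refer to the 4 lists alone. The media differ in IL-7 and in CXCL12 at once, and the parts of each cannot be told apart by these lists. Of the 823 CXCL12-specific regions, 451 (54.8%) also held a peak in both IL7- lists, from cultures without CXCL12. With 2 libraries in each group no exact permutation of the labels could reach 0.05, so these counts have no p-value (the smallest exact two-sided p is 0.333).

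**Figure D1:**
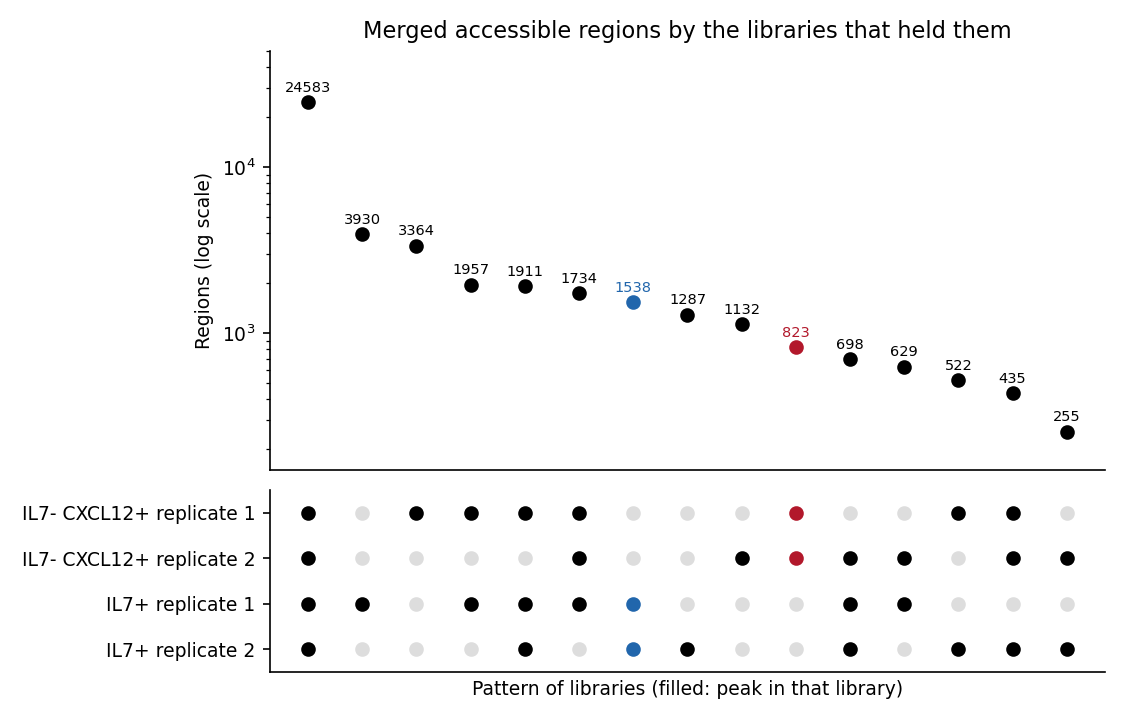
Number of merged regions (log axis) for each pattern of libraries, with filled dots below marking the libraries that held a peak. The red point is the 823 CXCL12-specific regions and the blue point the 1538 IL-7-specific regions, and 8 other patterns were more frequent than the red one besides the 24583 regions of all 4 libraries.

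On lists of equal length, each library shared more peaks with the other library of its medium than with either library of the other medium, by a small margin. Each list was reduced to its 30832 highest-scoring peaks, a planned setting, but reading pairs of libraries on it was chosen after seeing the data. Of the peaks of CXCL12 replicate 1, 85.8% then overlapped CXCL12 replicate 2, and 85.3% and 83.9% overlapped IL-7 replicates 1 and 2. For CXCL12 replicate 2 these shares were 86.4% in its own medium and 85.2% and 84.6% in the IL-7 replicates. Of the peaks of IL-7 replicate 1, 86.7% overlapped IL-7 replicate 2, and 85.0% and 84.4% overlapped CXCL12 replicates 1 and 2. For IL-7 replicate 2 they were 87.2% in its own medium and 84.0% and 84.1% in the CXCL12 replicates.

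Patterns of 2 libraries showed the same order. On these lists 1037 regions were held by both CXCL12 libraries alone and 1341 by both IL-7 libraries alone, whereas the 4 pairs that mix media held 528 to 658 regions. With the full lists the pairs followed list length as well. Pairs of a longer and a shorter list held 1538 and 823 regions within the IL-7 and CXCL12 media. Across media such pairs held 629 and 522. Both replicates numbered 1, the longer lists, shared 1957 regions held by no other list, and both replicates numbered 2 shared 255. Of the peaks of CXCL12 replicate 2, 91.1% overlapped CXCL12 replicate 1 and 91.3% overlapped IL-7 replicate 1, but 85.7% overlapped IL-7 replicate 2.

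The balance of both classes moved with list length. On the lists of 30832 peaks the CXCL12-specific regions numbered 1037 (2.62%) and the IL-7-specific ones 1341 (3.38%). The ratio of IL-7-specific to CXCL12-specific regions was then 1.29, against 1.87 with the full lists. Without chromosomes 10 to 12 the counts were 580 (1.76%) and 1171 (3.56%), a ratio of 2.02. At scores of at least 10 they were 420 (1.53%) and 1022 (3.73%), and among the 50% of each list with the highest scores 262 (1.27%) and 633 (3.07%). Without chromosomes 10 to 12 and on lists of equal length they were 771 (2.71%) and 994 (3.49%), a ratio of 1.29. The IL-7-specific regions were the more numerous in each of these settings, with a ratio from 1.29 to 2.43. Leaving out 1 library changes what each class requires, 1 peak and 2 absences for the reduced medium against 2 peaks and 1 absence for the other, and so shifts the ratio by construction. It was 1.76 and 0.534 without CXCL12 replicate 1 and 2, and 1.10 and 4.35 without IL-7 replicate 1 and 2.

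Regions specific to a medium were near the score floor, as the rule itself favours, since a region absent from 2 lists lies there more often and a region of all 4 libraries joins at least 4 peaks. Their widths and scores are given as a description. Median widths were 426 bp for CXCL12-specific, 475 bp for IL-7-specific and 772 bp for regions of all 4 libraries. The median score of the CXCL12-specific regions was 7.13 and 6.64 in the 2 CXCL12 libraries, where regions of all 4 libraries had 24.9 and 21.7. For the IL-7-specific regions it was 7.89 and 7.06 in the 2 IL-7 libraries, where regions of all 4 libraries had 26.9 and 23.6. No peak in the top 2 deciles of score of any of the 4 lists fell in a region specific to its medium.

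In the lowest decile of each list, 5.61% and 9.76% of CXCL12 peaks lay in CXCL12-specific regions, and 7.34% and 13.9% of IL-7 peaks lay in IL-7-specific regions. In decile 6 the shares were 0.838% and 0.0649% with CXCL12 and 2.81% and 1.39% with IL-7. From decile 2 to decile 8 both IL-7 libraries had a larger share than both CXCL12 libraries.

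**Figure D2:**
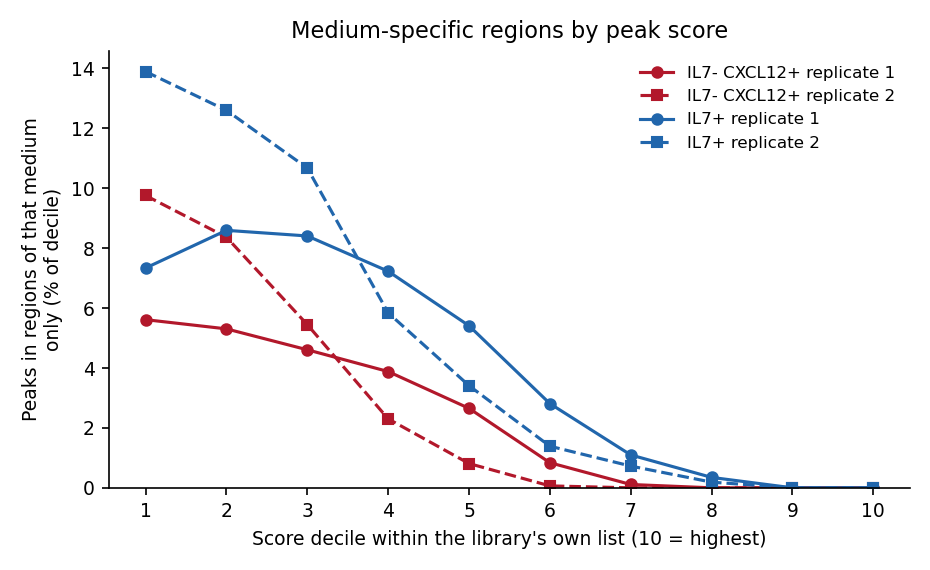
Share of each library's peaks (vertical axis, percent) that lay in regions specific to its medium, by decile of the score within that library's own list (horizontal axis, 10 highest). Shares ran from 5.61% to 13.9% in the lowest decile and were 0 in the 2 highest deciles of all 4 libraries.

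Among the better-scored regions, IL-7-specific ones were more numerous and reached higher in their lists, which is a description since the same scores decided the classes. For each specific region the score was turned into a percentile within each library's own list, and the lower of its 2 percentiles was taken. The highest such value was 43.6 for CXCL12-specific regions and 74.1 for IL-7-specific ones. Regions at or above the 40th percentile in both libraries numbered 17 with CXCL12 and 134 with IL-7, or 17 and 113 on lists of equal length. At or above the 50th percentile in the full lists they numbered 0 with CXCL12 and 63 with IL-7. Without chromosomes 10 to 12 and on lists of equal length, 8 CXCL12-specific and 67 IL-7-specific regions reached the 40th percentile. The limits at these percentiles were set after the values had been seen. The direction of this difference was the same in each of these settings, and it was not computed with a library left out.

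The 10 CXCL12-specific regions with the highest lower percentile outside chromosomes 10, 11, 12 and 18 are given by their mm9 coordinates. They were chr3:59061803-59062410, chr3:148989567-148990100, chr1:135252834-135253540, chr6:67557370-67558256 and chr15:41932072-41932615. The rest were chr16:19241303-19242244, chr17:63616821-63617535, chr9:110812007-110812530, chr17:87387589-87388364 and chr2:29479600-29480278. They were 524 to 942 bp wide and scored 11.8 to 18.3 in CXCL12 replicate 1 and 12.4 to 16.6 in replicate 2. Each of the 10 also held a peak in both IL7- lists and in both lists of sorted CXCR4-/- small pre-B cells. The first, chr3:59061803-59062410, scored 18.3 and 13.1 with CXCL12, and had no peak with IL-7. It scored 17.8 and 16.0 in the IL7- cultures and 54.9 and 41.8 in the sorted cells. The region chr15:41932072-41932615 scored 17.0 and 12.5 with CXCL12 and had the highest scores of the 10 in the sorted cells, 93.3 and 89.1.

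The 10 strongest IL-7-specific regions by the same rule were chr1:141309847-141310494, chr15:54567668-54568564, chr4:44975869-44976476, chr13:33651549-33652392 and chr7:113174766-113175701. The rest were chr9:107236553-107237179, chr4:89054628-89055269, chr9:107227306-107228028, chr15:63468068-63468569 and chr19:50344736-50345433. They were 502 to 936 bp wide and scored 26.0 to 45.1 in IL-7 replicate 1 and 28.5 to 39.7 in replicate 2. Of these 10, 0 held a peak in both lists of sorted cells, 2 held one in 1 list and 8 in 0. In the IL7- cultures 9 of the 10 held a peak in replicate 1 but not in replicate 2, and 1 held a peak in both. The first, chr1:141309847-141310494, scored 42.6 and 39.7 with IL-7 and had no peak with CXCL12. It scored 17.4 in IL7- replicate 1 and 7.46 in replicate 1 of the sorted cells. A pair of the 10, both on chromosome 9, belonged to a run of 3 IL-7-specific regions within 27.1 kb.

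CXCL12-specific regions were found more often than IL-7-specific ones in cells that the rule had not used. In the IL7- cultures, replicate 1 held 75.7% and replicate 2 held 64.3% of the CXCL12-specific regions. These lists held 69.0% and 31.8% of the IL-7-specific regions, so that the 2 replicates of the classes overlapped. In sorted CXCR4-/- small pre-B cells, the 2 lists held 75.0% and 73.0% of the CXCL12-specific regions and 57.0% and 48.1% of the IL-7-specific ones. Both lists of sorted cells lay higher for the CXCL12-specific class, with no overlap between classes. For comparison, the same 2 lists held 86.1% and 85.0% of the regions of all 4 libraries and 59.1% and 53.2% of regions held by 1 library. The IL-7-specific regions were thus found in sorted cells about as often as regions of a single library.

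The gap was wider among regions of like score. Where the lower percentile lay from 20 to 45, a range set after the values had been seen, the sorted lists held 81.8% and 80.7% of 176 CXCL12-specific regions and 56.8% and 46.3% of 451 IL-7-specific ones. The IL7- lists held 89.8% and 85.8% of these CXCL12-specific regions and 73.4% and 33.3% of these IL-7-specific ones. Without chromosomes 10 to 12 the sorted lists held 87.6% and 85.3% of the CXCL12-specific class and 60.6% and 51.3% of the IL-7-specific class. With each of the 8 lists reduced to 30832 peaks they held 63.3% and 62.5% against 21.3% and 21.0%. The sorted cells differ from the cultures in genotype as well as in origin, and the parts of each cannot be told apart. They also differ in their peaks on chromosomes 10, X and Y, given below.

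**Figure D3:**
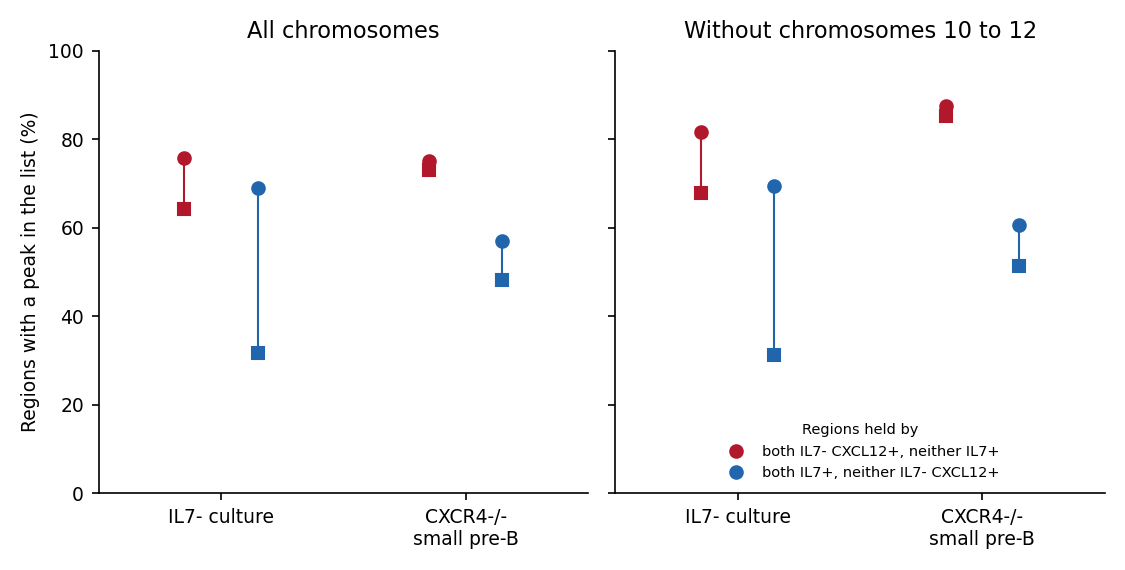
Share of CXCL12-specific (red) and IL-7-specific (blue) regions that held a peak in lists not used to choose them (vertical axis, percent), with replicate 1 as a circle and replicate 2 as a square. Over all chromosomes the sorted CXCR4-/- small pre-B lists held 75.0% and 73.0% of the red class and 57.0% and 48.1% of the blue one, and in the IL7- cultures replicate 2 held 64.3% of the red and 31.8% of the blue.

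Replicate 1 of the IL7- cultures stood closer to the IL-7 libraries than replicate 2 did. It was the longer list, with 42205 peaks against 35299, but on lists of 30832 peaks it still held 49.6% of the IL-7-specific regions against 28.3% in replicate 2. Of the CXCL12-specific regions these shortened lists held 55.1% in replicate 1 and 59.5% in replicate 2. Of the 823 CXCL12-specific regions, 451 (54.8%) held a peak in both IL7- lists and 122 (14.8%) in neither. Of the 1538 IL-7-specific regions, 405 (26.3%) held a peak in both IL7- lists and 393 (25.6%) in neither. There were 75 CXCL12-specific regions (9.11%) with no peak in the IL7- lists or the sorted lists, and 263 such IL-7-specific regions (17.1%).

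Chromosome 10 stood out in the cultures of both media alike. It held 14.6% and 16.0% of the peaks with CXCL12 and 14.4% and 15.4% with IL-7, where sorted cells had 7.28% and 7.67%. Its first 40 Mb alone held 2791 and 2693 peaks with CXCL12 and 2832 and 2669 with IL-7, against 1378 and 1250 in the longer lists of sorted cells. A 5 Mb stretch of chromosome X, starting at 120 Mb, held 252 and 271 peaks with CXCL12 and 256 and 254 with IL-7, against 13 and 14 in sorted cells. Chromosome Y held 116 and 112 peaks with CXCL12, 119 and 112 with IL-7, and 7 and 9 in sorted cells.

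The specific regions made up small shares of chromosome 10. It held 139 CXCL12-specific regions, 2.01% of its 6918 regions, against 1.84% of regions on all chromosomes. Its 183 IL-7-specific regions made up 2.65%, below the 3.43% on all chromosomes. Between chromosomes 1 and 19 the CXCL12-specific share ran from 1.27% on chromosome 4 to 2.29% on chromosome 18. The IL-7-specific share ran from 2.65% on chromosome 10 to 4.05% on chromosome 5, and was above the CXCL12-specific share on each of these 19 chromosomes.

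**Figure D4:**
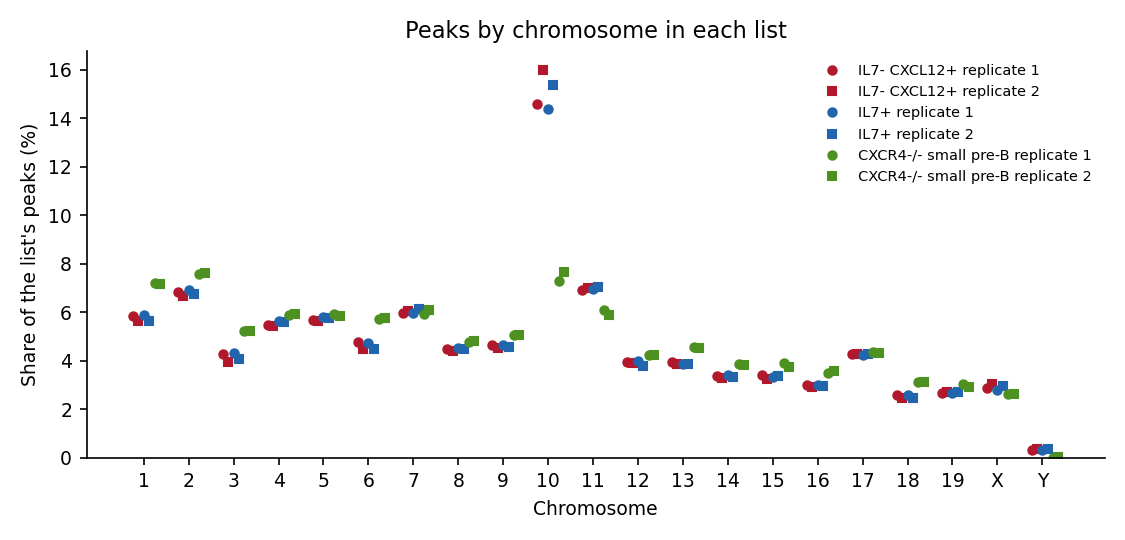
Share of each list's peaks (vertical axis, percent) on each chromosome, for CXCL12 cultures (red), IL-7 cultures (blue) and sorted CXCR4-/- small pre-B cells (green), with replicate 1 as a circle and replicate 2 as a square. Chromosome 10 held 14.4% to 16.0% of the peaks in the 4 culture lists and 7.28% and 7.67% in sorted cells.

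The Igk locus on chromosome 6 held more CXCL12-specific than IL-7-specific regions. Between 67 and 71 Mb of mm9, which hold Igk, there were 123 and 77 peaks with CXCL12 and 91 and 70 with IL-7. The IL7- lists without CXCL12, of 42205 and 35299 peaks, held 121 and 98 there. Of the 135 regions of this window 9 (6.67%) were CXCL12-specific and 2 (1.48%) IL-7-specific, against 1.82% and 3.44% of regions elsewhere. On lists of equal length they were 13 and 1. With 1 library left out the CXCL12-specific and IL-7-specific counts were 9 and 7 without CXCL12 replicate 1, and 38 and 2 without CXCL12 replicate 2. They were 18 and 4 without IL-7 replicate 1, and 10 and 9 without IL-7 replicate 2. The CXCL12-specific count was thus the higher one in each case, by 1 or 2 regions in the closest. Of the 9 CXCL12-specific regions, chr6:67557370-67558256 scored 11.9 and 16.6 and chr6:68071618-68072105 scored 14.6 and 10.8 with CXCL12. Both held a peak in each IL7- list and each list of sorted cells. So did the rest of the 9, except chr6:70089087-70089313 and chr6:70121514-70121980. The former had no peak in the IL7- lists and a peak in 1 sorted list, and the latter had a peak in 1 IL7- list and both sorted lists. Of the 2 IL-7-specific ones, chr6:68388865-68389267 scored 6.27 and 6.58 with IL-7 and had no peak in the IL7- lists.

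Specific regions lay somewhat nearer to regions of all 4 libraries than single-library regions did. A region of all 4 libraries lay within 10 kb of 43.3% of the CXCL12-specific regions, 39.5% of the IL-7-specific regions and 36.7% of the regions of 1 library. Most specific regions had no neighbour of their class. With gaps of up to 100 kb, 696 of the 823 CXCL12-specific and 1149 of the 1538 IL-7-specific regions stood alone. Runs of 2 numbered 50 with CXCL12 and 151 with IL-7. Runs of 3 or more numbered 9 with CXCL12 and 28 with IL-7, the larger class.

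Regions held by all 4 libraries also moved within their lists. Among lists of equal length 23175 regions held a peak in each, and their score percentiles were compared. In 280 (1.21%) both CXCL12 percentiles lay at least 15 points above both IL-7 percentiles, and in 384 (1.66%) both lay at least 15 points below. This limit was set after the values had been seen. The widest gap of the first kind was at chr15:34862720-34863239, at percentiles 56.0 and 55.7 with CXCL12 and 5.87 and 9.87 with IL-7. Its scores were 21.9 and 18.7 with CXCL12 and 7.15 and 6.15 with IL-7, and 115 and 115 in sorted cells. Another such region, chr3:136362661-136363156, stood at percentiles 71.3 and 70.5 with CXCL12 and 7.95 and 29.4 with IL-7.

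Of the second kind, chr7:16831136-16831743 stood at percentiles 3.04 and 6.66 with CXCL12 and 64.1 and 68.9 with IL-7. The stretch chr14:25981173-25981964 stood at 27.5 and 23.0 with CXCL12 and 78.4 and 82.5 with IL-7, and had no peak in the sorted cells. At chr7:16831136-16831743 the 2 IL7- cultures differed, with a score of 29.2 in replicate 1 and no peak in replicate 2. At chr13:12898578-12899219 they also differed, with scores of 31.8 and 6.92. There the CXCL12 scores were 7.91 and 6.35 and the IL-7 scores 43.7 and 31.5.

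RNA of the proteins that open or close chromatin was read in the same media, as counts scaled to library size (CPM) with n = 2 libraries each. Of 14862 genes tested with edgeR's quasi-likelihood test, 29.8% were higher and 21.5% lower with CXCL12 than with IL-7 at a Benjamini-Hochberg adjusted p under 0.05, and the median log2 change was 0.12. Of 57 remodelling subunits and acetyltransferases, 11 were higher and 21 lower, with a median of -0.09. In all 56.1% of them were called, near the 51.3% of all genes. Of 39 sequence-specific factors, 24 were higher and 6 lower (76.9%), with a median of 0.56.

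Il7r, the IL-7 receptor, was 303 and 302 CPM with CXCL12 against 97.5 and 91.7 CPM with IL-7 (log2 change 1.68 ± 0.12 SE, edgeR adjusted p = 3.3e-07). Cxcr4, the CXCL12 receptor, was 237 and 226 CPM with CXCL12 against 113 and 112 CPM with IL-7, and did not pass in the fit of all 18 libraries (log2 change 1.03 ± 0.65 SE, edgeR adjusted p = 0.21). In a fit of the 4 libraries alone its change was 0.91 and passed (edgeR adjusted p = 1.2e-08).

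The remodelling lists held members that changed in both directions. Ruvbl1 and Ruvbl2, the helicase pair of the INO80 and SRCAP complexes, changed by -1.27 ± 0.08 and -1.27 ± 0.12, where values here and below are log2 changes ± SE. In all 3 of the 5 INO80 and SRCAP genes tested were lower and 0 higher. Of the CHD and NuRD subunits 9 of 18 were lower and 2 higher, the ATPases Chd2 (0.87 ± 0.18) and Chd3 (0.63 ± 0.14), named after their values were seen. Those lower included the histone chaperones Rbbp7 (-1.20 ± 0.09) and Rbbp4 (-0.82 ± 0.09), the deacetylase Hdac2 (-0.85 ± 0.10) and the methyl-CpG binder Mbd2 (-0.63 ± 0.08). Of the BAF subunits, which make up the SWI/SNF complex that slides and ejects nucleosomes, 6 of 22 were higher and 6 lower. Smarcc1 (-1.04 ± 0.13), Actl6a (-1.02 ± 0.09) and Phf10 (-0.68 ± 0.10) fell and Bcl7a (1.10 ± 0.18) rose. Both ATPases of the complex, Smarca4 (0.41 ± 0.11) and Smarca2 (0.67 ± 0.13), rose as well, and were also named after their values were seen. Of the 8 ISWI genes 3 were higher and 2 lower. The ATPase Smarca5 (-0.78 ± 0.08) and its partner Baz1b (-0.94 ± 0.15) fell, and Cecr2 (1.25 ± 0.29) and Bptf (0.39 ± 0.12) rose. So did Baz2a (1.13 ± 0.39), named after its value was seen. The acetyltransferase Kat2a (-1.06 ± 0.08) was the 1 member of 4 to pass, as lower. Crebbp (0.70 ± 0.52), Kat2b (0.39 ± 0.18) and Ep300 (0.37 ± 0.18), named after their values were seen, lay above 0 and did not pass. Yy1 (-0.28 ± 0.08) fell with the INO80 list. Bptf no longer passed when any single library of the 4 was left out (log2 change 0.36 to 0.42). Yy1 no longer passed without CXCL12 replicate 1 (-0.22) or IL-7 replicate 2 (-0.25).

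Sequence-specific factors rose more often. Irf4, a regulator of light chain rearrangement, was 753 and 722 CPM with CXCL12 against 235 and 224 CPM with IL-7 (1.68 ± 0.10). Myb (1.64 ± 0.08), Spib (1.01 ± 0.08), Ikzf3 (1.11 ± 0.28), Bach2 (1.35 ± 0.15) and the repressor Bcl6 (2.26 ± 0.18) rose as well. So did the AP-1 genes Fos (2.13 ± 0.35), Fosb (2.41 ± 0.56), Fosl2 (1.77 ± 0.58), Jun (1.09 ± 0.35), Junb (1.29 ± 0.35) and Jund (1.33 ± 0.39). The immediate early genes Egr1 (1.66 ± 0.45), Egr2 (1.89 ± 0.40) and Egr3 (2.32 ± 0.30) rose, as did the NF-kB subunit Rel (1.23 ± 0.30) and the quiescence factor Klf2 (1.02 ± 0.29). Myc, which drives growth, was 27.7 and 25.2 CPM with CXCL12 against 159 and 164 CPM with IL-7 (-2.61 ± 0.08). The other 5 that fell, named after their values were seen, were Lef1 (-0.50 ± 0.15), Ets1 (-0.46 ± 0.14), Runx1 (-0.45 ± 0.14), Ctcf (-0.41 ± 0.13) and Stat5a (-0.27 ± 0.10). Without CXCL12 replicate 1 or 2 the factors called lower numbered 2 and 1, and without IL-7 replicate 1 or 2 they numbered 1 and 2. Fosl2 (log2 change at most 2.11) and Jun (1.03 to 1.14) did not pass when any single library was left out. Without IL-7 replicate 1 neither Junb (1.22) nor Egr1 (1.45) passed. Jund did not pass without IL-7 replicate 1 or 2 (1.34 and 1.31), nor Klf2 without CXCL12 replicate 1 or IL-7 replicate 2 (0.99 and 0.96).

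**Figure D5:**
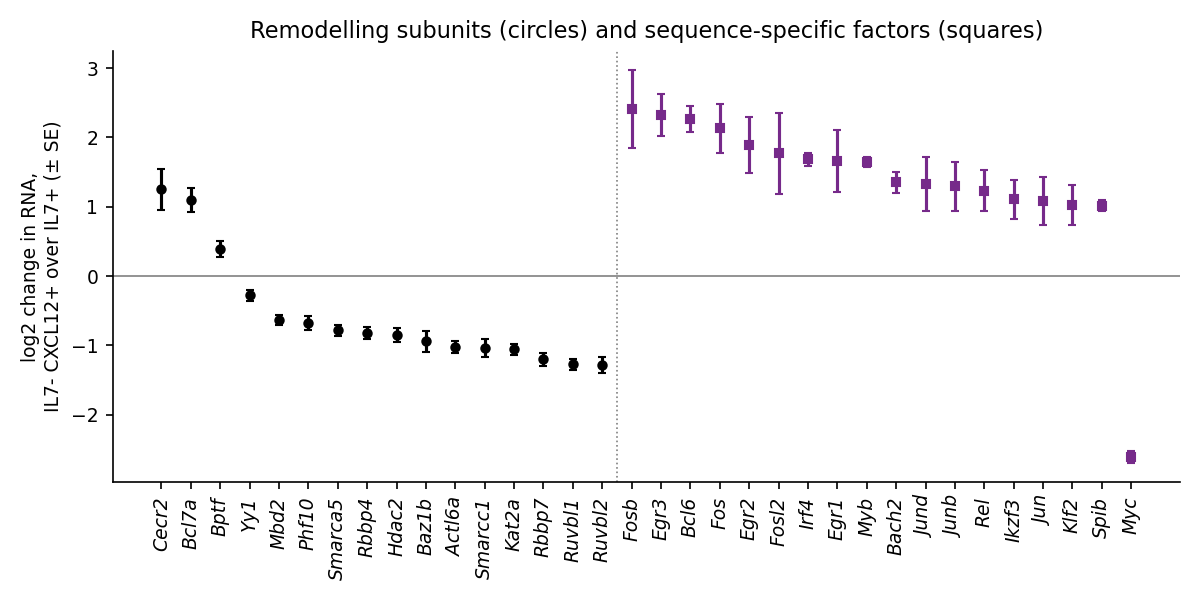
Log2 change in RNA with CXCL12 without IL-7 over IL-7 (vertical axis, bars are ± SE from the fit of 18 libraries, n = 2 libraries per medium) for the named remodelling subunits (circles) and sequence-specific factors (squares). Myc lies lowest at -2.61 and Fosb highest at 2.41. The 16 remodelling genes shown were picked by smallest p in each list, and 3 of them lie above 0. Of all 57 tested, 11 were called higher and 21 lower.

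Markers of other cells moved with the medium in these RNA libraries. B-lineage markers summed to 5763 and 5648 CPM with CXCL12 and 5111 and 4823 CPM with IL-7, and 2 of the 7 passed as higher and 1 as lower. Cd79a was 1133 and 1126 CPM with CXCL12 against 890 and 833 CPM with IL-7. The surrogate light chain genes went the other way, with Igll1 at 345 and 335 CPM with CXCL12 against 1003 and 968 CPM with IL-7, and Vpreb1 at 338 and 333 CPM with CXCL12 against 586 and 560 CPM with IL-7. All 6 stromal markers rose and summed to 1401 and 1385 CPM with CXCL12 against 250 and 483 CPM with IL-7. All 6 myeloid markers rose too and summed to 519 and 523 CPM with CXCL12 against 106 and 148 CPM with IL-7. T cell markers summed to 1.40 and 1.60 CPM with CXCL12 and 0.418 and 0.517 CPM with IL-7, and Hba-a1 and Hbb-b1 of red cells were at 0 counts. In bulk cultures fewer cells of a type and less RNA per cell cannot be told apart, and the part of stromal and myeloid cells in the ATAC-seq and RNA differences was not tested.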

How the data were processed

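ATAC-seq peaks were deposited as 1 list per library with a score per peak, the authors' own value, of scale not named in the files. The peak names of each list leave gaps in their numbering, and some called peaks are thus not listed. Per the submitters' processing notes, the build was mm9 and the tools named are MACS2, BWA, STAR, featureCounts, Picard and bedtools, with roles and versions not given in the sources used here. RNA values were deposited by the authors as raw counts for 23762 gene symbols, and 0 columns belonged to no sample. The second CXCL12 column is named as small pre-B but its title as pre-B, and it was assigned by medium and number. Totals were 43297149 and 17257914 with CXCL12 and 44244785 and 44727809 with IL-7, so that CXCL12 replicate 2 had the lowest total of these libraries.

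Peaks were merged at 1 bp overlap with Python 3.11.15, numpy 2.4.6 and pandas 2.3.3, checked against bedtools 2.31.1. Where scores tied at a list's end, file order decided. Counts were fitted with edgeR 4.0.16 (R 4.3.3), 1 mean per group over 18 libraries and 9 groups, TMM scaling and the default filter on low counts, and the p-values measure the spread between libraries, which may be technical. The test was tried on simulated counts. Alternatives included DESeq2 1.42.0, RLE size factors, no filter, a replicate block and each library left out. Regions were named by the highest lower-of-2 percentile, 10 per direction. Genes named were up to 4 called members of each list with the smallest p, factors called with a log2 change of at least 1, and both receptors. Members, lists and rules were chosen with earlier results of these data known. Nearby genes, motifs and sequences were not analysed here, since the reference tables were of another build. Figures used matplotlib 3.10.9.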

Additional observations from a re-analysis of the deposited data

How the results depend on the processing

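Counts of specific regions depend on where each list ends. Relative to 823 CXCL12-specific and 1538 IL-7-specific regions, the counts were 420 and 1022 at scores of at least 10 and 262 and 633 among the 50% of each list with the highest scores, where fewer peaks are compared. Without chromosomes 10 to 12 and on lists of equal length the IL-7-specific count was 994. Leaving out each library in turn gave 1258 to 4187 CXCL12-specific and 2236 to 5468 IL-7-specific regions, since 1 library then decides a group. On lists of equal length, leaving out CXCL12 replicate 1, CXCL12 replicate 2, IL-7 replicate 1 and IL-7 replicate 2 gave 3006, 3134, 2159 and 1866 CXCL12-specific and 2377, 2311, 3256 and 3093 IL-7-specific regions. The ratio of IL-7-specific to CXCL12-specific regions ranged from 0.534 to 4.35 without 1 library, and from 0.737 to 1.66 on lists of equal length. It was below 1 without CXCL12 replicate 2 (0.534), and on equal lists without CXCL12 replicate 1 (0.791) or 2 (0.737), where the left-out library changes what each class requires. Covering at least 50% of a region, merging peaks up to 200 bp apart, merging all 8 lists, or leaving out chromosomes 10, X and Y, the last chosen after seeing the data as were the equal lists without a library, kept both counts within 1.5 times.

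In the Igk window the 9 CXCL12-specific regions became 5 at scores of at least 10, 2 among the highest-scoring 50%, and 9 to 38 without 1 library, or 15, 35, 17 and 16 on equal lists, in the same order. The 2 IL-7-specific regions became 1 on equal lists with or without chromosomes 10 to 12, 0 among the highest-scoring 50%, and 2 to 9 without 1 library, or 4, 1, 3 and 5 on equal lists.

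The mean share of CXCL12-specific regions in an IL7- list was 57.3% on equal lists, against 70.0% with the full ones. In a sorted list it was 62.9% on equal lists and 86.5% without chromosomes 10 to 12, against 74.0%. The mean share of IL-7-specific regions in a sorted list was 21.1% on equal lists, against 52.5%. The CXCL12-specific share was the higher one in each setting.

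In RNA, the fit of the 2 groups alone called 5654 genes lower (3199 in the fit of 18 libraries) and 32 remodelling genes lower (21). Factors called lower numbered 1 to 2 without 1 library, against 6. RLE size factors, no filter and DESeq2 changed 0 of the 36 calls of named genes. The replicate numbers share no stated origin, and deviations of same-numbered libraries had a correlation of -0.0078 over 14862 genes. The replicate block called 4370 genes higher and 3190 lower, against 4430 and 3199, and it changed no call of a named gene. The region counts come from no test and had no such fit. Genes near regions and motif shares were not run. Depth of the ATAC-seq libraries is unknown, so that absence of a peak is not absence of access.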

Other observations

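The longest runs of neighbouring specific regions were 3 runs of 4 IL-7-specific regions, with gaps of up to 100 kb. They lay at chr10:16248774-16374673, chr16:10639350-10769309 and chrX:121493726-121621729, and spanned 125.9, 129.96 and 128.0 kb. The first lies in the first 40 Mb of chromosome 10 and the last in the stretch of chromosome X that starts at 120 Mb, both of which held more peaks in cultured than in sorted cells. That stretch of chromosome X also held runs of 3 CXCL12-specific regions, at chrX:120748348-120785253 and chrX:121457276-121532957. The latter overlaps the span of the IL-7-specific run there.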
